A study of Mus musculus with 4 samples.

Results

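The genes described here are 56 genes of DNA replication and mitosis, chosen by name from the 29676 gene names of the array. They were arranged in 21 replication genes, 9 G1 cyclin and E2F genes and 26 mitosis genes. All probes that the files assign to these names were taken, 77 in all, and 41 genes had 1 probe. Expression was compared between untreated astrocyte-enriched cultures (AECs) and AECs kept under oxygen–glucose deprivation (OGD) for 15 h, with 2 cultures in each group. AECs are mixed glial cultures from the cerebral cortex of newborn ICR mice, from which PLX3397, a drug that blocks the receptor microglia need to survive (Csf1r), had removed most microglia. Both groups had received this drug, and each culture was grown from pooled pups. OGD is medium without glucose in a chamber without oxygen or with little of it, a culture model of ischemia. Each RNA sample was labeled with Cy3 and hybridized to its own single-color array, on which the brightness of a spot reads the abundance of an RNA.

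Before DNA is copied, the licensing factors Cdc6 and Cdt1 load the MCM helicase onto origins, and the cell then needs polymerases, their sliding clamp and a supply of deoxynucleotides. Cyclins D and E with their kinases release the E2F factors, which drive the genes of this step. Mitosis follows under cyclin B with Cdk1, the Plk1 and Aurora kinases and the spindle checkpoint, and its genes are largely read through the DREAM and Foxm1 complexes at paired CHR and CCAAT elements. Astrocytes of newborn cortex still divide in culture, as do NG2 glia.

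Promoter sequence was examined first, because the lists differ there in a way that the choice by name did not use. RefSeq promoter windows of 300 bases (GRCm38.p6), from 250 bases before to 50 after a transcription start, were available for 43 of the 56 genes. They were searched on both strands for the E2F motif (TTTCCCGC, TTTCGCGC, TTTGCCGC or TTTGGCGC), the CHR motif (TTTGAA or TTCGAA) and the CCAAT motif. An E2F motif was found in 8 of the 19 windows of replication genes (42.1%) and in 1 of the 20 windows of mitosis genes (5.0%), against 2.26% of all 32851 windows. A CHR motif together with a CCAAT motif was found in 15 of the 20 windows of mitosis genes (75%) and in 3 of the 19 windows of replication genes (15.8%), against 7.52% of all windows. Matches to different motifs overlapped 1 time in the windows of these genes, and matches to the same motif 2 times. A match is a description of the letters in the window and not of a bound site.

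The following windows run from 160 bases before to 30 after the start, 5′ to 3′ on the strand of the gene, and capitals mark the motif letters. *Mcm6*, at chr1:128359676-128359865 (- strand), and *Cdc6*, at chr11:98907991-98908180 (+ strand), are shown for their E2F motifs.
Mcm6: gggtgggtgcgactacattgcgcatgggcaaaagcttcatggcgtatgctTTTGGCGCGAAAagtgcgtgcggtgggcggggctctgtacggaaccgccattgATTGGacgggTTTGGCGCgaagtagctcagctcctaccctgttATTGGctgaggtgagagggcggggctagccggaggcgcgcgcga
Cdc6: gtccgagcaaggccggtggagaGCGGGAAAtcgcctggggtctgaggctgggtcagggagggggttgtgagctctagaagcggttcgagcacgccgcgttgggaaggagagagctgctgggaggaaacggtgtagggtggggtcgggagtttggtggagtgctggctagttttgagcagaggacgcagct
*Cdk1*, at chr10:69352883-69353072 (- strand), is shown because it holds an E2F motif as well as both elements of the mitosis genes. *Cdc20*, at chr4:118437314-118437503 (- strand), *Cdc25b*, at chr2:131186788-131186977 (+ strand), and *Top2a*, at chr11:99024160-99024349 (- strand), are shown for the paired CHR and CCAAT motifs.
Cdk1: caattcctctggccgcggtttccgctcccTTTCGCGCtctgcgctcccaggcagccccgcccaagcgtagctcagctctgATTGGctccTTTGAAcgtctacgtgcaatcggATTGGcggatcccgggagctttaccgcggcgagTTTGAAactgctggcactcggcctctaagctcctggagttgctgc
Cdc20: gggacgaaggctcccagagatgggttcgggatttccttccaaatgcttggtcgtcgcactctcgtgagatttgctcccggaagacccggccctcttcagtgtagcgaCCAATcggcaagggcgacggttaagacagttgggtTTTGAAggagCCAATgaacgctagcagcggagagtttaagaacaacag
Cdc25b: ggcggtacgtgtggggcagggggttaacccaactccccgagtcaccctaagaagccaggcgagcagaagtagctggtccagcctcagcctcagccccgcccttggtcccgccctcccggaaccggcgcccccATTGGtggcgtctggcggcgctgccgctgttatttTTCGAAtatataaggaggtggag
Top2a: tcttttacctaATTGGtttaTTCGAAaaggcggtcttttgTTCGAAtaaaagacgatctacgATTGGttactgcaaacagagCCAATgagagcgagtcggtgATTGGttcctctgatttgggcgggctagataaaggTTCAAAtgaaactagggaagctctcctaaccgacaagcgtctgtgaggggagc
*Cdt1*, at chr8:122567855-122568044 (+ strand), and *Tk1*, at chr11:117825985-117826174 (- strand), are shown because they were the replication genes with the largest increase and decrease described below. The printed stretch of *Cdt1* holds no motif, and its E2F motif starts at base 33 after the transcription start. The *Tk1* window holds none of the motifs searched.
Cdt1: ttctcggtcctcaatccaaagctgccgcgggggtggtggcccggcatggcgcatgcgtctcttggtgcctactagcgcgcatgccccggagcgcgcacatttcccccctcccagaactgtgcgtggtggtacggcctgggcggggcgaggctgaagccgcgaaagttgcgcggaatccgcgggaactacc
Tk1: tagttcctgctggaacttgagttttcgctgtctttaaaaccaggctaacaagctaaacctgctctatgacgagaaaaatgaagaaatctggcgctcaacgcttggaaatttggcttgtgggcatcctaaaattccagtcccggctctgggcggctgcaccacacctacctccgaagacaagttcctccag

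The level of a gene is given as its relative signal, the background-subtracted signal divided by the 75th percentile of all non-control probes on the same array, so that 1 is the level of that percentile. A gene with several probes is represented by the brightest probe. A change is the mean log2 relative signal after OGD minus that of untreated cultures, with its SE and the adjusted p-value from limma, and a gene was called at an adjusted p under 0.05. All 4 arrays shared 1 slide and 1 scan. The percentile itself was lower after OGD (887 and 776) than in untreated cultures (2135 and 2164), by −1.37 in log2 units, whereas the signal of spiked-in control RNA differed by −0.085. Relative signal therefore does not show a shift that most genes shared, and changes are also given with the arrays scaled on the spiked-in RNA where the direction depends on it. The methods state a fixed mass of total RNA for labeling, so neither scaling reads the amount of RNA per cell or per culture. In such bulk samples, fewer cells of a type and less RNA per cell cannot be told apart. Replicate arrays correlated across probes with r = 0.998 in untreated cultures and r = 0.995 after OGD.

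Most of the genes were lower after OGD relative to the 75th percentile. Of the 54 genes tested, 30 were called lower and 7 higher, and 17 were not called. Among all 21048 genes tested, 27.8% were called lower and 37.1% higher. The median log2 change of the 54 genes was −0.41, against 0.16 for all genes. Changes of more than 2-fold were fewer, with 10 genes lower (15.0% of all genes) and 1 gene higher (12.7% of all genes), and *E2f2* alone fell by more than 10-fold (0.561% of all genes). Without untreated replicate 1, 15 genes were called lower (16.9% of all genes) and 3 higher (21.7%), and without untreated replicate 2, 14 lower (16.9%) and 3 higher (17.9%). With the spiked-in RNA as the scale, 53 genes were called lower and *Cdt1* higher, where 83.3% of all genes were called lower and 3.84% higher. *Ccne2*, a cyclin E, and *Aurkb*, the kinase of the chromosomal passenger complex, were not well above background on any array and were not tested.

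**Figure D1:**
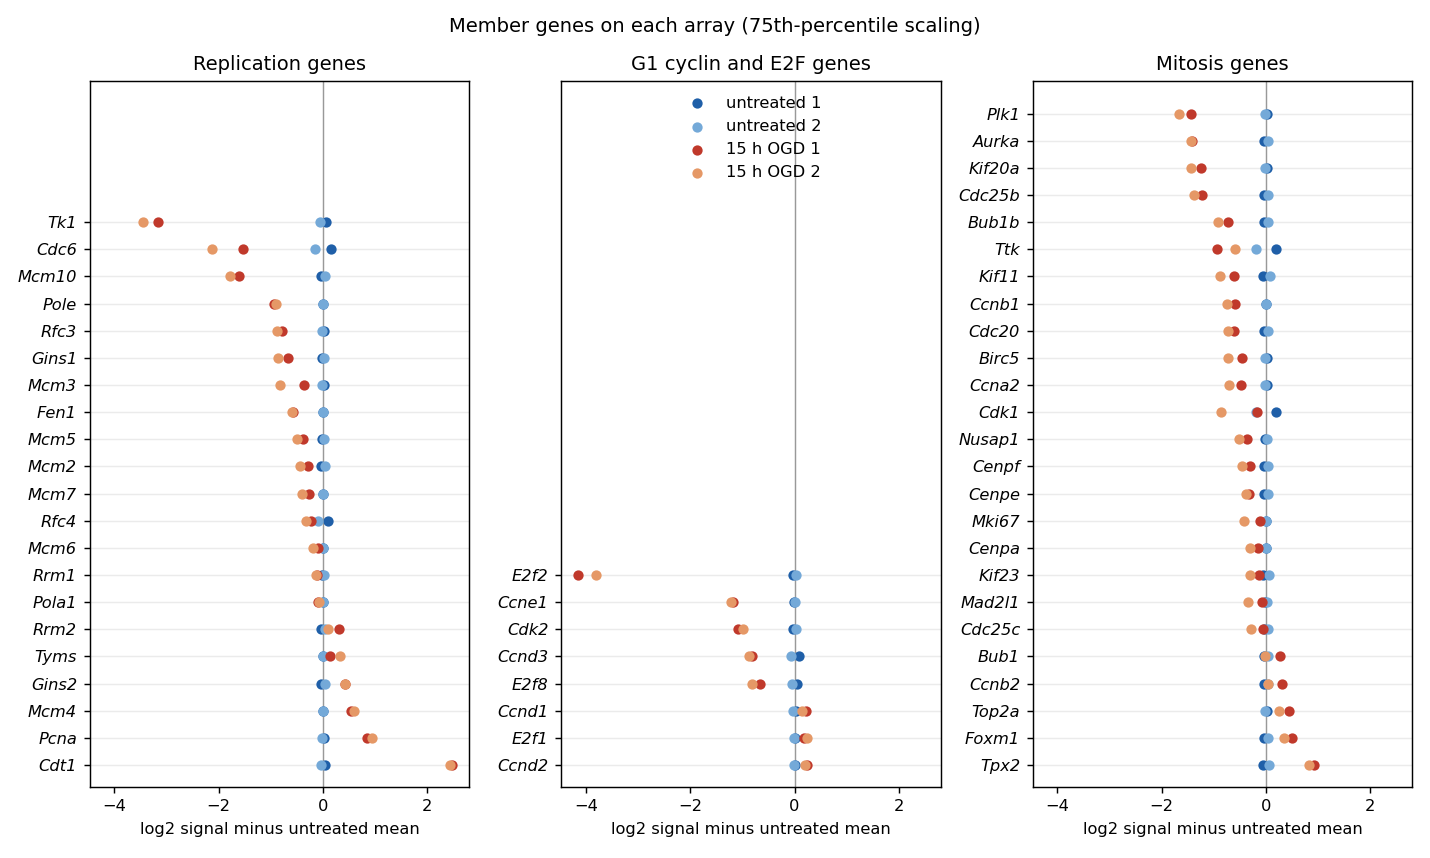
Log2 relative signal of the 54 tested genes on each of the 4 arrays (75th-percentile scaling), minus the mean of the 2 untreated arrays, with 1 row per gene and points for untreated 1 and 2 and 15 h OGD 1 and 2. The OGD points lie farthest to the left for *E2f2* (log2 change −3.97) and *Tk1* (−3.30), and farthest to the right for *Cdt1* (2.45).

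Among the replication genes, 11 of 21 were called lower, 4 higher and 6 were not called, with a median log2 change of −0.34. The licensing factors moved apart. *Cdt1*, which loads the MCM helicase together with Cdc6, had relative signals of 3.10 and 2.95 in untreated cultures and 16.8 and 16.3 after OGD. The groups did not overlap, and the increase was 5.47-fold (log2 change 2.45 ± 0.080 SE, adjusted p = 0.00073, limma). Its signal before scaling also rose, from 6609 and 6387 to 14924 and 12634, and the log2 change was 1.16 with spike-in scaling. Of all genes tested, 98.2% had a smaller or equal change than *Cdt1*.

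*Cdc6*, the partner of Cdt1 at origins, had relative signals of 0.10 and 0.080 in untreated cultures and 0.0310 and 0.0206 after OGD. The decrease was 3.55-fold (log2 change −1.83 ± 0.25 SE, adjusted p = 0.0061, limma). This probe was dim, and with normexp background correction, which adds an offset to all signals, the log2 change was −0.18 and was not called. The second probe of *Cdc6* had a log2 change of −3.01 ± 0.31 (SE), and it was well above background on 1 of the OGD arrays.

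The MCM subunits, which form the ring of the replicative helicase, did not all change alike. Relative to the 75th percentile, *Mcm2* (−0.36 on the log2 scale), *Mcm3* (−0.59), *Mcm5* (−0.44) and *Mcm7* (−0.34) were called lower, and *Mcm6* had a log2 change of −0.15 with an adjusted p of 0.198 (limma). The calls of *Mcm2* and *Mcm7* were lost in 7 of the 17 alternative fits each, and that of *Mcm3* in 4. With spike-in scaling, the changes of these genes lay between −1.88 (*Mcm3*) and −1.43 (*Mcm6*). *Mcm4* had relative signals of 6.89 and 6.84 in untreated cultures and 9.98 and 10.3 after OGD. It was higher by 0.56 ± 0.076 (SE) relative to the 75th percentile and lower with spike-in scaling (log2 change −0.72), and 3 further fits lost its call. *Mcm10*, which joins the helicase to the polymerase and is not a subunit of the ring, fell 3.23-fold, from 0.666 and 0.705 to 0.226 and 0.200 (log2 change −1.69 ± 0.10 SE, adjusted p = 0.0012, limma). The GINS subunits, which activate the helicase, also split, since *Gins1* was lower (−0.76 ± 0.10 SE) and *Gins2* higher (0.42 ± 0.081 SE). *Gins2* was lower with spike-in scaling (−0.87) and lost its call in 3 further fits.

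The clamp and the polymerases also differed. *Pcna*, the sliding clamp, had relative signals of 16.3 and 16.0 in untreated cultures and 29.1 and 30.9 after OGD. It was 1.85-fold higher relative to the 75th percentile (log2 change 0.89 ± 0.081 SE, adjusted p = 0.0024, limma), whereas its log2 change was −0.40 with spike-in scaling and 0.21, not called, with quantile normalization. *Rfc3*, a subunit of the loader that places the clamp, was lower (−0.83 ± 0.083 SE), and *Rfc4* of the same loader had a log2 change of −0.28 with an adjusted p of 0.0882 (limma) by its brightest probe. *Pole*, the catalytic subunit of the leading-strand polymerase, fell by 0.92 on the log2 scale by its brightest probe, and *Fen1*, the flap nuclease of lagging-strand synthesis, fell by 0.58. *Pola1*, the catalytic subunit of the primase polymerase, had a log2 change of −0.09 (adjusted p = 0.365, limma).

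Of the genes that supply deoxynucleotides, *Tk1* alone was called. Thymidine kinase 1, the salvage enzyme of S phase, had relative signals of 1.77 and 1.62 in untreated cultures and 0.190 and 0.155 after OGD. The decrease was 9.86-fold (log2 change −3.30 ± 0.14 SE, adjusted p = 0.00079, limma), and a second probe had a log2 change of −2.49 ± 0.14 (SE). The remaining *Tk1* probe was well above background on 1 untreated array and was not tested. *Rrm1* (−0.13) and *Rrm2* (0.21), the subunits of ribonucleotide reductase, and *Tyms* (0.23), thymidylate synthase, had adjusted p-values of 0.203, 0.173 and 0.116 (limma), and *Rrm2* and *Tyms* were lower with spike-in scaling (−1.08 and −1.06).

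**Figure D2:**
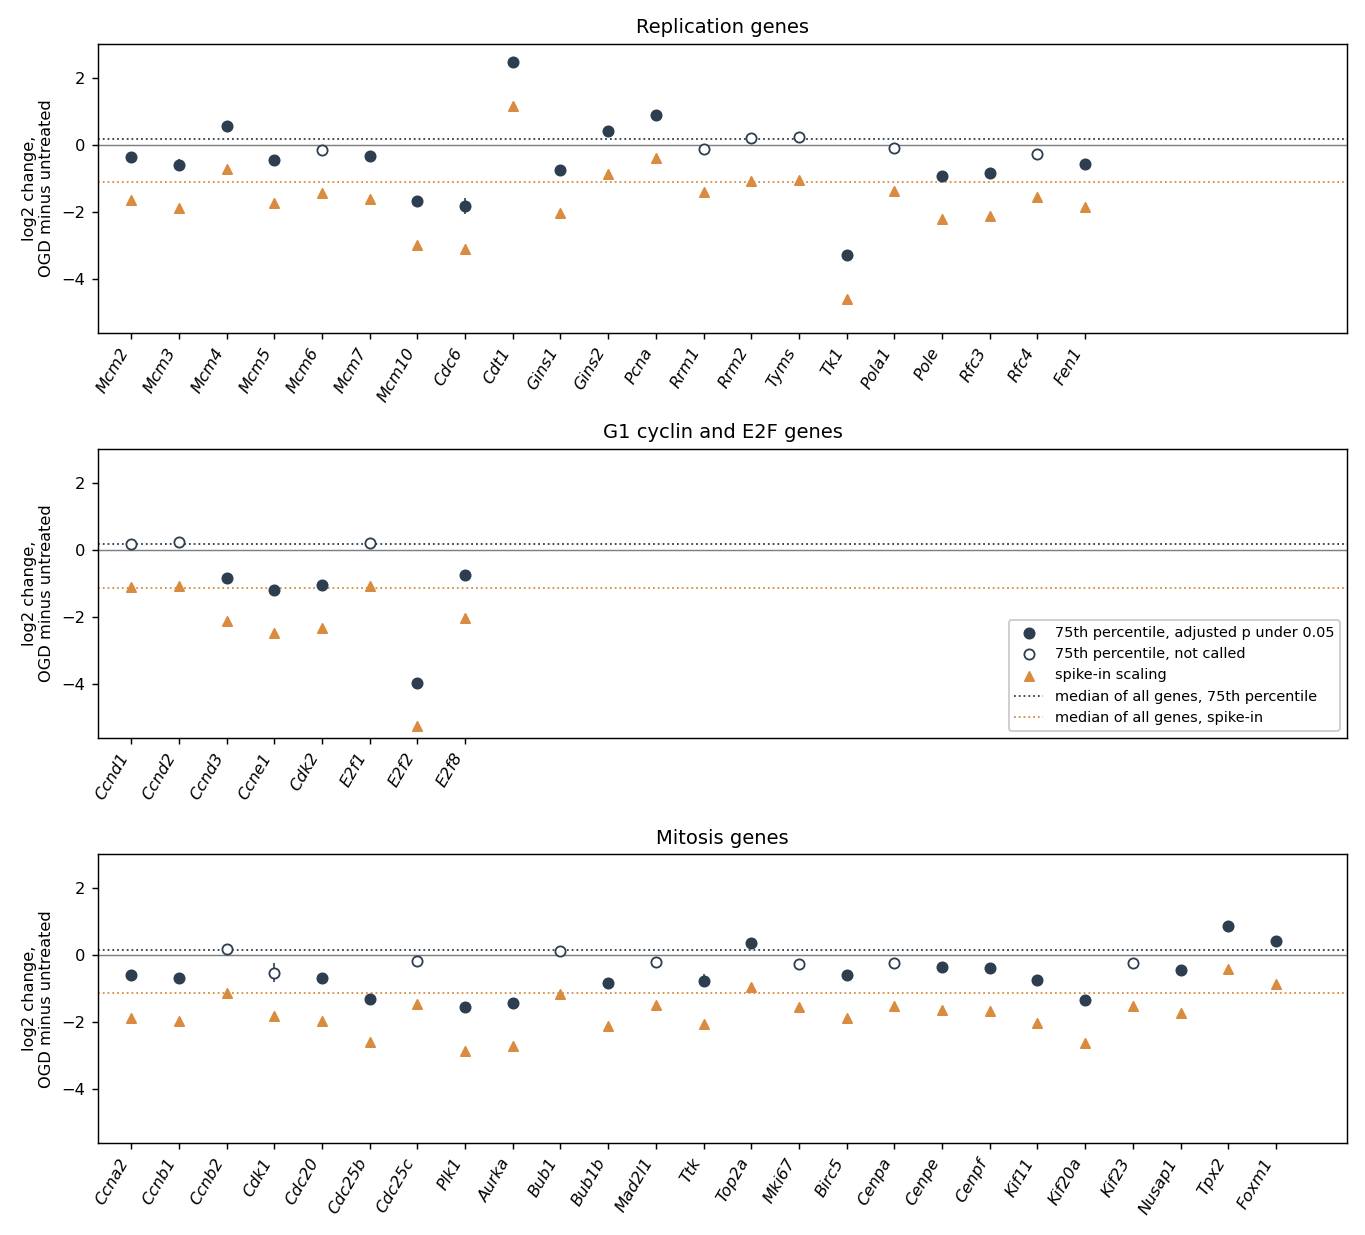
Log2 change of each tested gene (OGD minus untreated, n = 2 arrays per group) with 75th-percentile scaling (circles, bars ± SE, filled where the adjusted p was under 0.05) and with spike-in scaling (triangles). Dotted lines mark the medians of all genes tested, 0.16 and −1.13. *Cdt1* lies above 0 on both scales, and the 13 other genes above 0 with the former lie below 0 with the latter, among them the called genes *Mcm4*, *Gins2*, *Pcna*, *Top2a*, *Tpx2* and *Foxm1*.

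Among the G1 cyclin and E2F genes, 5 of the 8 tested were called lower and 3 were not called, with a median log2 change of −0.79. *E2f2*, an activator E2F, had relative signals of 0.603 and 0.621 in untreated cultures and 0.0346 and 0.0439 after OGD. The decrease was 15.7-fold (log2 change −3.97 ± 0.15 SE, adjusted p = 0.00075, limma), and 0.200% of all genes tested had a change as low. The OGD signals of this probe were dim, and with normexp the log2 change was −2.77, which is under 10-fold. *E2f1*, another activator, differed by 0.21 with an adjusted p of 0.0751 (limma), and *E2f8*, a repressor of E2F targets, fell by 0.74. The D cyclins, which start the exit from G1, did not move together. *Ccnd3* fell from 14.8 and 13.3 to 8.01 and 7.69 (log2 change −0.84 ± 0.095 SE), whereas *Ccnd1* (0.19) and *Ccnd2* (0.22) had adjusted p-values of 0.117 and 0.0655 (limma). Both D cyclins that were not called, and *E2f1*, were lower with spike-in scaling (−1.10, −1.07 and −1.07). With quantile normalization, *Ccnd1* (−0.67, adjusted p = 0.0046, limma) and *Ccnd2* (−0.50, adjusted p = 0.011, limma) were called lower. *Ccnd3* stayed lower on both of these scales. *Ccne1*, the cyclin of S-phase entry, fell 2.29-fold, from 1.26 on both untreated arrays to 0.558 and 0.545 (log2 change −1.19 ± 0.075 SE, adjusted p = 0.0013, limma). Its kinase *Cdk2* fell by 1.04 on the log2 scale, from 0.128 and 0.133 to 0.0612 and 0.0660, and by 0.37 with normexp.

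Among the mitosis genes, 14 of the 25 tested were called lower, 3 higher and 8 were not called, with a median log2 change of −0.45. The largest decreases in this list were those of *Plk1*, *Aurka*, *Kif20a* and *Cdc25b*. *Plk1*, the polo-like kinase of mitotic entry and spindle assembly, had relative signals of 3.91 and 3.79 in untreated cultures and 1.42 and 1.20 after OGD, without overlap. The decrease was 2.94-fold (log2 change −1.56 ± 0.12 SE, adjusted p = 0.0017, limma). *Aurka*, the Aurora kinase of centrosomes, fell 2.69-fold, from 1.69 and 1.76 to 0.645 and 0.636 (log2 change −1.43 ± 0.077 SE, adjusted p = 0.0010, limma). *Cdc25b*, a phosphatase that activates Cdk1, fell from 0.590 and 0.627 to 0.258 and 0.232 (log2 change −1.31 ± 0.097 SE, adjusted p = 0.0016, limma). Its relative *Cdc25c* had a log2 change of −0.17 (adjusted p = 0.248, limma), which became 0.38 with normexp.

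The cyclins that act with Cdk1 changed less. *Ccna2* fell by 0.59 and *Ccnb1* by 0.68 on the log2 scale. *Ccnb2* had a log2 change of 0.17 (−1.12 with spike-in scaling), and its groups overlapped. By its brightest probe, *Cdk1* itself also overlapped, at 1.27 and 0.980 in untreated cultures and 0.984 and 0.611 after OGD, and its log2 change of −0.52 ± 0.29 (SE) was not called (adjusted p = 0.187, limma). A second *Cdk1* probe that passed the background limit on every array did not overlap, at 0.0176 and 0.0177 in untreated cultures and 0.0158 and 0.0163 after OGD, and its log2 change of −0.14 ± 0.076 (SE) was not called either (adjusted p = 0.180, limma).

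Of the spindle checkpoint, which delays anaphase until chromosomes are attached, *Bub1b* (−0.82), *Ttk* (−0.77) and its target *Cdc20* (−0.67), the activator of the anaphase-promoting complex, were called lower. *Ttk* was dim, changed sign with normexp (0.81) and lost its call in 5 of the other fits. *Bub1* (0.13) and *Mad2l1* (−0.21) were not called, at adjusted p-values of 0.427 and 0.195 (limma), and *Bub1* was lower with spike-in scaling (−1.16). At the centromere, *Cenpe* (−0.36), *Cenpf* (−0.38) and *Birc5* (−0.60), which encodes survivin, were called lower, and *Cenpa*, the centromeric histone, had a log2 change of −0.23 (adjusted p = 0.0935, limma). *Cenpf* was also dim, was at 0.83 with normexp and lost its call in 9 of the other fits, and *Cenpe* lost its call in 6.

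Among the spindle motors, *Kif20a*, a kinesin of cytokinesis, fell 2.53-fold, from 1.55 and 1.52 to 0.645 and 0.567 (log2 change −1.34 ± 0.10 SE, adjusted p = 0.0017, limma). *Kif11*, the motor that separates the spindle poles, fell by 0.74 on the log2 scale, and *Kif23* had a log2 change of −0.22 (adjusted p = 0.139, limma). *Nusap1*, a microtubule binding protein of the spindle, fell by 0.45. *Top2a*, the topoisomerase that untangles chromosomes, was at 0.676 and 0.656 in untreated cultures and 0.908 and 0.795 after OGD. It was higher by 0.35 ± 0.10 (SE) relative to the 75th percentile (adjusted p = 0.0442, limma) and lower with spike-in scaling (−0.94), and 8 of the 17 alternative fits lost the call. *Foxm1*, the transcription factor of mitotic genes, was likewise higher by 0.42 ± 0.093 (SE) and lower with spike-in scaling (−0.87), and 5 alternative fits lost the call. *Mki67*, the proliferation marker, had relative signals of 2.85 on both untreated arrays and 2.64 and 2.12 after OGD, and its log2 change of −0.27 was not called (adjusted p = 0.156, limma).

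Replication and mitosis genes were then set against each other. The medians of their log2 changes differed by 0.11, with the replication genes less reduced. Within an array, where the scaling by a single factor plays no part, the mean log2 signal of the replication genes exceeded that of the mitosis genes by 1.19 and 1.16 in untreated cultures and by 1.23 and 1.31 after OGD. The difference of 0.10 between the groups stood beside SDs between replicates of 0.022 (untreated, n = 2) and 0.055 (OGD, n = 2). The changes of single genes ran from −3.30 to 2.45 in the replication genes and from −1.56 to 0.88 in the mitosis genes. With quantile normalization the difference of the medians was −0.024, so that its direction was not stable, and no test was made, because genes are not replicates. Members with an E2F motif in a promoter window had a median log2 change of −0.52 (n = 11, from −3.97 to 2.45), and those with paired CHR and CCAAT motifs of −0.60 (n = 20, from −3.97 to 0.35). Members with a CCAAT motif and no CHR motif in a window had a median of −0.40 (n = 14, from −3.97 to 0.89). The 10 genes with a window that held none of the motifs had a median of −0.51. A gene with several windows was counted under each.

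**Figure D3:**
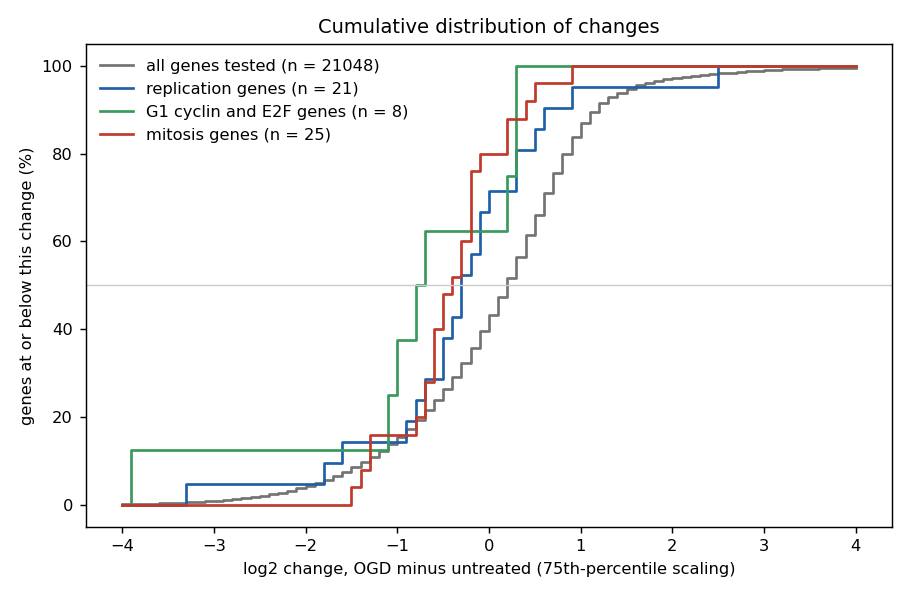
Share of genes at or below a given log2 change (OGD minus untreated, 75th-percentile scaling) for all 21048 genes tested, 21 replication genes, 8 G1 cyclin and E2F genes and 25 mitosis genes. The curves of the lists cross 50% at lower changes than that of all genes, whose median was 0.16, and the curves of replication and mitosis genes lie close together (medians −0.34 and −0.45).

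Several probes of the same gene did not always give the same change. In 13 genes, 2 or more probes passed the background limit on every array, and in 9 of them the probe farther upstream in the gene had the higher log2 change. The median difference, upstream minus downstream, was 0.14. It did not exceed the larger SE of the probes in *Mcm3* (0.086, probes 17 bases apart), *Birc5* (0.089) and *Ccne1* (0.14). The same held in *Rfc4* (−0.080) and *Mki67* (−0.13), where the difference ran the other way. *Tpx2*, which activates Aurora A on spindle microtubules, had opposite calls. Its brighter probe (mm9 chr2:152719476-152719535) was at 0.965 and 1.04 in untreated cultures and 1.90 and 1.78 after OGD (log2 change 0.88 ± 0.090 SE, −0.41 with spike-in scaling). The probe 809 bases downstream had a log2 change of −0.45 ± 0.11 (SE, adjusted p = 0.0276, limma). *Ccnb1* was called lower by the most downstream probe alone, and its other two probes were at 0.00 and 0.10. The difference within *Tk1* was 0.81, and both of its probes fell. A second *Pole* probe was at −0.36 ± 0.15 (SE) and was not called (adjusted p = 0.0958, limma), and a second *Rfc4* probe was called lower at −0.36 ± 0.076 (SE, adjusted p = 0.0184, limma). Of the *Birc5* probes, one was at −0.36 and was not called (adjusted p = 0.119, limma), whereas the others were called lower. The calls for *Tpx2*, *Ccnb1*, *Pole*, *Rfc4* and *Birc5* thus depend on the probe. With the mean over the probes of a gene, *Tpx2* (0.22) and *Ccnb1* (−0.19) were not called.

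**Figure D4:**
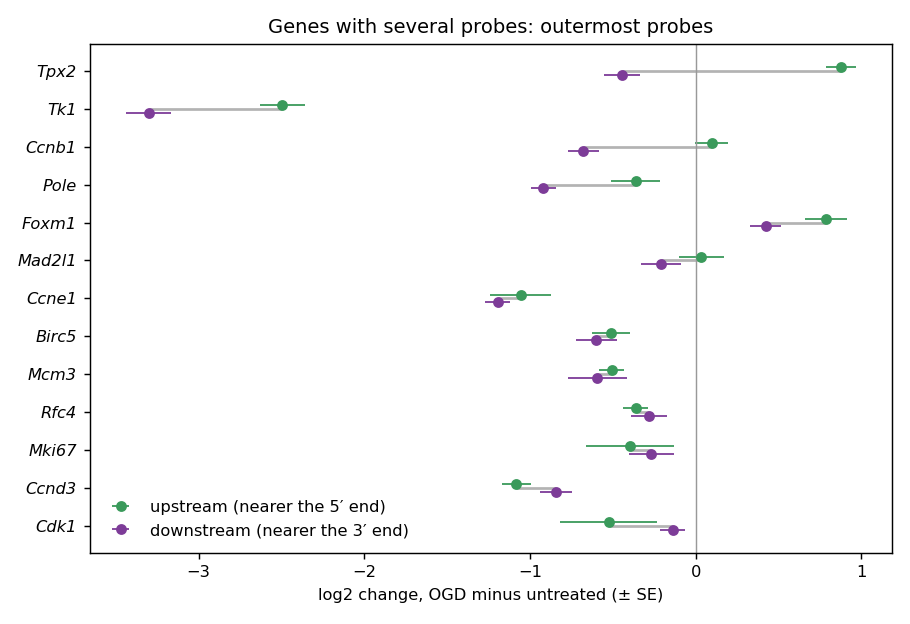
Log2 change (OGD minus untreated, 75th-percentile scaling, bars ± SE) of the outermost upstream and downstream probes in the 13 genes that had 2 or more probes past the background limit on every array. The upstream probe lies to the right in 9 genes, and the *Tpx2* probes lie on opposite sides of 0.

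Further genes of the same pathways were described by list. Of 33 other genes of the replication origin and fork, 15 were called lower and 7 higher, with a median log2 change of −0.27. The largest changes were those of *Timeless* (−2.11 ± 0.11 SE), a fork protection factor, of *Pole2* (−2.07 ± 0.11 SE), a subunit of the polymerase of *Pole*, and of *Pola2* (−1.77 ± 0.086 SE), a subunit of the primase polymerase. Among 11 genes of checkpoint signaling, 5 were lower and 3 higher. *Gadd45a*, a growth arrest gene, rose from 0.903 and 0.945 to 6.66 and 6.35 (log2 change 2.82 ± 0.081 SE) and was also higher with spike-in scaling (1.53). *Cdc25a*, the phosphatase of S-phase entry, fell by 1.74, and *Clspn*, a mediator of checkpoint signaling, fell by 1.58 on the log2 scale.

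Of 24 CDK inhibitors, pocket proteins and related regulators, 7 were called lower and 8 higher, with a median log2 change of 0.05. *E2f7*, a repressor related to *E2f8*, fell from 0.486 and 0.460 to 0.0810 and 0.0726 (log2 change −2.62 ± 0.098 SE). The CDK inhibitors *Cdkn1c* (1.27 ± 0.13 SE) and *Cdkn2a* (1.10 ± 0.13 SE) were higher relative to the 75th percentile and at −0.02 and −0.18 with spike-in scaling. Of 16 genes of the anaphase-promoting complex and its partners, 7 were higher and 3 lower. Its subunit *Cdc27* was at 0.94 and its partner *Ube2s* at 0.91, both lower with spike-in scaling (−0.35 and −0.38), and its inhibitor *Fbxo5* fell by 0.77. Of 15 measured genes of cohesin and condensin, 8 were lower and 3 higher, with *Espl1* (−1.42), the protease that opens cohesin, and the condensin subunits *Ncaph* (−1.36) and *Ncaph2* (−0.70) in front. Of 30 measured genes of the kinetochore and spindle, 13 were lower and 7 higher, led by *Mad1l1* (−1.08) of the spindle checkpoint, *Hmmr* (−1.06), a spindle assembly factor, and *Melk* (−1.02), a kinase of dividing cells. With spike-in scaling, the measured genes of these lists were below 0 except *Gadd45a*. The 27.8% and 37.1% of all genes called lower and higher are the background of these counts.

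The composition of the cultures was read from marker genes. All 10 astrocyte markers were well above background on every array, and their summed relative signal was 166 and 145 in untreated cultures and 217 and 221 after OGD. Of these markers 5 were called higher and 2 lower, namely *Sox9* (log2 change −1.52) and *Fgfr3* (−0.54). Of all genes tested, 37.1% were called higher and 27.8% lower, the background of the counts in this paragraph. The 6 markers of NG2 glia, dividing precursors of oligodendrocytes, summed to 21.7 and 21.6 in untreated cultures and 14.9 and 13.5 after OGD. *Olig1* (log2 change −0.49) made up most of this sum, and *Olig2* was at a log2 change of −2.50, *Pdgfra* at −1.27 and *Cspg4* at 0.88. The 10 microglial markers summed to 5.35 and 4.96 and to 11.8 and 11.5, and *Cx3cr1* and *Ptprc* were well above background on 2 of the arrays. The 7 oligodendrocyte markers summed to 17.2 and 14.8 and to 29.0 and 32.1, the 7 neuronal markers to 28.3 and 26.3 and to 27.9 and 30.9, and the 5 endothelial markers to 1.67 and 1.75 and to 1.41 and 1.29, with *Cldn5* and *Tek* not well above background on any array. *Stmn2* made up most of the neuronal sum, while *Nefl* (1.95) and *Nefm* (1.31) were called higher and *Rbfox3* (−1.12) and *Syt1* (−0.60) lower. Of the microglial markers 4 were called higher, among them *Cd68* (3.14), and *Tmem119* was called lower (−0.88). The 5 fibroblast markers measured on every array summed to 13.0 and 11.1 in untreated cultures and 10.9 and 8.36 after OGD. These sums are relative to the 75th percentile. With spike-in scaling, all 10 astrocyte, 7 oligodendrocyte and 6 NG2 glia markers were below 0 (median log2 changes −0.72, −0.78 and −2.02). Of the microglial markers, 9 were below 0 and 1 above (median −0.89), and of the neuronal markers 5 and 2 (median −1.15). The median of all genes on that scale was −1.13. The part of such marker shifts in the changes of the replication and mitosis genes was not tested.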

How the data were processed

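Total RNA of 4 AEC samples, 2 untreated and 2 after OGD for 15 h, was labeled with Cy3 and hybridized to single-color mouse arrays. The authors deposited an intensity per spot, the processed signal of Feature Extraction (version 11.5.1.1 in the submitters' processing notes), with background and spatial trends subtracted within each array and no scaling between arrays. The authors' table of the series held the same values. Probe positions are on mm9.

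Control and outlier spots were left out, log2 of the deposited intensity was averaged over the spots of a probe, and each array's 75th percentile was subtracted. Probes that were well above background (in a fraction of 0.5 or more of their spots) on both arrays of either group were fitted in limma 3.58.1 (lmFit and eBayes, R 4.3.3), with Benjamini–Hochberg adjustment over 28254 of 39429 probes. A spot marked as an outlier was left out of the fit on its array alone. A gene took the value of its brightest probe, and background shares were counted over 21048 genes. The fit was also run on simulated data without a shared shift, which says nothing on the choice of scaling. Between 64.5% and 73.7% of the spots per array were well above background and 0 were saturated, and 2 arrays per group limit the precision. The methods state that wells came from independent cultures.

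All 56 members are named. From the other pathway lists, the 3 largest changes were named among genes called and well above background on all 4 arrays. The members and lists were chosen with earlier results of these data known. The alternatives were the methods' t-test, an intensity trend with a robust prior, a block for the replicate number, normexp (offset 50), quantile, median and spike-in scaling, a percentile taken over bright probes (those well above background), no filter or a stricter one, outlier spots kept, the series table, the mean over probes, each array left out, and limits of 2-fold and 10-fold. Promoter windows were from RefSeq (GRCm38.p6). Python 3.11.15, pandas 2.3.3, numpy 2.4.6 and matplotlib 3.10.9 were used.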

Additional observations from a re-analysis of the deposited data

How the results depend on the processing

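Of the 37 genes called, 13 kept their direction and their call under all 17 alternative fits: *Mcm10*, *Cdt1*, *Tk1*, *Pole*, *Rfc3*, *Ccnd3*, *Ccne1*, *Cdk2*, *E2f2*, *Cdc25b*, *Plk1*, *Aurka* and *Kif20a*. Of these, the log2 changes of *E2f2* and *Cdk2* moved by 1.20 and 0.66 with normexp, to −2.77 and −0.37. The number called lower was 30, and 14 to 33 with an array left out, while the number called higher was 7, and 3 to 7. Under spike-in scaling 53 were lower and 1 higher, normexp gave 11 higher, and a percentile taken over bright probes (those well above background) gave 4 higher. Of all genes, 27.8% were called lower and 37.1% higher, against 20.8% and 60.5% with normexp, 31.1% and 28.4% with quantile normalization, 32.5% and 30.1% with the percentile over bright probes and 83.3% and 3.84% with spike-in scaling. A limit of 2-fold left 10 lower and 1 higher, and a limit of 10-fold 1 lower and 0 higher, by the construction of these limits. The median of all genes was at 0.16, and at −1.13 with spike-in scaling, 0.51 with normexp, −0.023 with quantile normalization, 0.0088 with the percentile over bright probes and 0.41 with no filter.

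The median change of the replication genes (−0.34) was −0.28 with normexp, −0.49 with quantile normalization, −0.49 with the percentile over bright probes, −1.62 with spike-in scaling and −0.41 to −0.27 with an array left out. That of the mitosis genes (−0.45) was −0.30, −0.60 (percentile over bright probes), −1.73 (spike-in scaling) and −0.52 to −0.32. Their difference (0.11) was 0.022 with normexp, −0.024 with quantile normalization, 0.045 with the mean over probes and 0.057 to 0.12 with an array left out. With spike-in scaling, the log2 changes became −0.72 for *Mcm4*, −0.87 for *Gins2*, −0.40 for *Pcna*, −1.08 for *Rrm2*, −1.06 for *Tyms*, −1.10 for *Ccnd1*, −1.07 for *Ccnd2*, −1.07 for *E2f1*, −1.12 for *Ccnb2*, −1.16 for *Bub1*, −0.94 for *Top2a*, −0.41 for *Tpx2* and −0.87 for *Foxm1*, by a shift shared by all probes. Quantile normalization gave −0.24 for *Rrm2* and −0.011 for *Ccnb2*, neither called, and −0.67 for *Ccnd1* and −0.50 for *Ccnd2*, both called lower. With normexp, *Cdc25c* (0.38), *Ttk* (0.81) and *Cenpf* (0.83) were called higher. *Bub1* was at −0.022 with the percentile over bright probes and ranged from −0.013 (without OGD replicate 1) to 0.27 with an array left out. The cause was not tested. The methods' t-test called 22 lower and 7 higher (19.7% and 25.6% of all genes).

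Samples of the same replicate number did not deviate together (correlation −0.057). The sample titles do not say whether the same number marks the same culture, and 2 arrays per group cannot settle it. With the replicate number as a block, 26 genes were called lower and 5 higher (26.4% and 34.4% of all genes). With 2 arrays per group, small changes near the threshold rest on few measurements, and dim probes such as those of *Cdc6*, *Cdk2*, *E2f2*, *Ttk* and *Cenpf* depend on the background correction.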
